A study of Mus musculus with 9 samples.

Results

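Collagen chains and the enzymes that modify collagen were followed over a differentiation course of mouse embryonic stem cells. The genes were taken by symbol: every gene whose symbol is Col, digits, a, digits, and 12 named genes for prolyl and lysyl hydroxylases, lysyl oxidases and the procollagen proteinase enhancer Pcolce. This rule uses no measured value, but it was chosen with earlier results of these data known. A gene entered when it had a probe set annotated with its symbol alone, and its brightest probe set was used. This gave 54 of the 22180 genes measured, 44 collagen chains and 10 modifying genes. Of the 12 named genes, Loxl2 and Plod3 had only probe sets that are annotated with a further gene as well and were left out. The cells carried green fluorescent protein driven by the Afp promoter (Afp encodes alpha-fetoprotein, a serum protein of fetal endoderm) and were grown on gelatin as embryoid bodies that began with 300 cells. Reporter-positive cells were sorted at days 4, 7 and 21, and RNA of 3 samples per day was put on 1 array each, 9 arrays in all. All 3 groups share the reporter line, a medium with serum and ascorbic acid, and the sort, so no unsorted cells and no other line serve as a control. The series title gives the purpose as profiling endoderm that forms from embryonic stem cells. The comparisons ask how collagen transcripts changed over this course.

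Collagens are extracellular proteins in which chains wind into a triple helix. Fibrillar chains such as those of collagens I, III and V assemble into the fibrils of connective tissue and are made in quantity by fibroblasts and other mesenchymal cells. Collagen IV forms the sheet-like network of basement membranes, which epithelia such as the endoderm of the yolk sac rest on. New chains are hydroxylated on proline and lysine in the endoplasmic reticulum by enzymes that need ascorbate, the propeptides are cut off outside the cell, and lysyl oxidases then crosslink the fibrils.

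Values are log2 signals, in which a difference of 1 is a factor of 2, and error is given as SD over the 3 arrays of a day unless SE is named. The 95th percentile of 1088 olfactory receptor genes served as a background level and lay at 6.01, 5.97 and 5.96 on days 4, 7 and 21. The level of 1 probe set cannot be set against that of another, so only changes are compared between genes. Array medians over all probe sets lay between 5.88 and 5.98, and correlations across genes, which are not independent replicates, were 0.984 to 0.991 within a day. Afp itself was below background at day 4 (5.72 ± 0.18), although those cells are labelled as sorted for it, and stood at 10.60 ± 0.07 and 13.07 ± 0.11 on days 7 and 21. All 12 listed visceral endoderm markers were called higher at day 7 than at day 4 (6.98% of all genes). At day 21 against day 7, 11 of the 12 were called lower (10.7% of all genes), the exception being Afp. Of 10 listed hepatoblast markers, 8 were called higher and 0 lower from day 7 to day 21 (12.4% and 10.7% of all genes). A gene is called when its limma p-value, adjusted over all 22180 genes, is under 0.05. Separate cultures are not stated for the arrays within a day, and the spread that the p-values rest on may therefore be technical.

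Most of the change in collagen genes fell between days 7 and 21, the longer interval, and it was mainly upward. With no sample between those days, the rate of change within the interval was not measured. From day 4 to day 7, 4 members were called higher (P4ha1, Col4a2, Col4a1 and Col18a1) and 4 lower (Pcolce, Col5a1, Loxl3 and Col23a1), where 6.98% of all genes were called higher and 6.47% lower. These counts amount to 7.41% of the members in each direction, close to the shares of all genes, or 14.8% against 13.4% when both directions are joined. Without array 2 of day 4 the lower count was 2, and it was 2 to 5 over the arrays left out in turn. From day 7 to day 21, 23 members were called higher and 3 lower (Col18a1, Col2a1 and Col23a1), which is 42.6% and 5.56% of the members, against 12.4% and 10.7% of all genes, or 48.1% against 23.0% in either direction. The median log2 change of the members was 0.18 in that interval and -0.03 in the earlier interval, against -0.03 and -0.01 over all genes. From day 4 to day 21, 26 members were called higher and 1, Col23a1, lower, where 15.0% and 14.1% of all genes were called (29.1% in either direction). Without array 3 of day 21 the lower count there was 3. Calls of at least 2-fold counted 4 higher and 1 lower by day 7 (2.05% and 1.36% of all genes), 18 higher and 0 lower after it (4.64% and 1.80%), and 18 and 0 over the whole course (5.44% and 2.57%). The 3 arrays of the later day lay entirely above those of the earlier day for 8, 24 and 27 members in these 3 comparisons and entirely below for 14, 4 and 4, where 29.9%, 35.5% and 40.4% of all genes were apart in either direction. The whole-course comparison shares its arrays with the other two, so its counts do not stand apart from theirs. In these sorted bulk samples, fewer cells of a type and less RNA per cell cannot be told apart.

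Of the 54 members, 38 had a mean above background on every day and 8 on no day. Over all 22180 genes these counts were 11487 and 8682. A set of 24 was called in no comparison. Of all genes, 13.4%, 23.0% and 29.1% were called in either direction in the 3 comparisons, and the share called in none was not counted. It holds Col4a3 and Col4a4, the collagen IX chains, Col10a1, Col7a1 and 2 modifying genes, Plod1 and Loxl4, among others. Their log2 changes lay between -0.50 and 0.42. Only 3 members, Col5a1, Loxl3 and Pcolce, were called lower by day 7 and higher afterwards, a course that 2.37% of all genes took. With Col18a1, which went up and then down, 4 members were called in both intervals in opposite directions (5.04% of all genes).

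**Figure D1:**
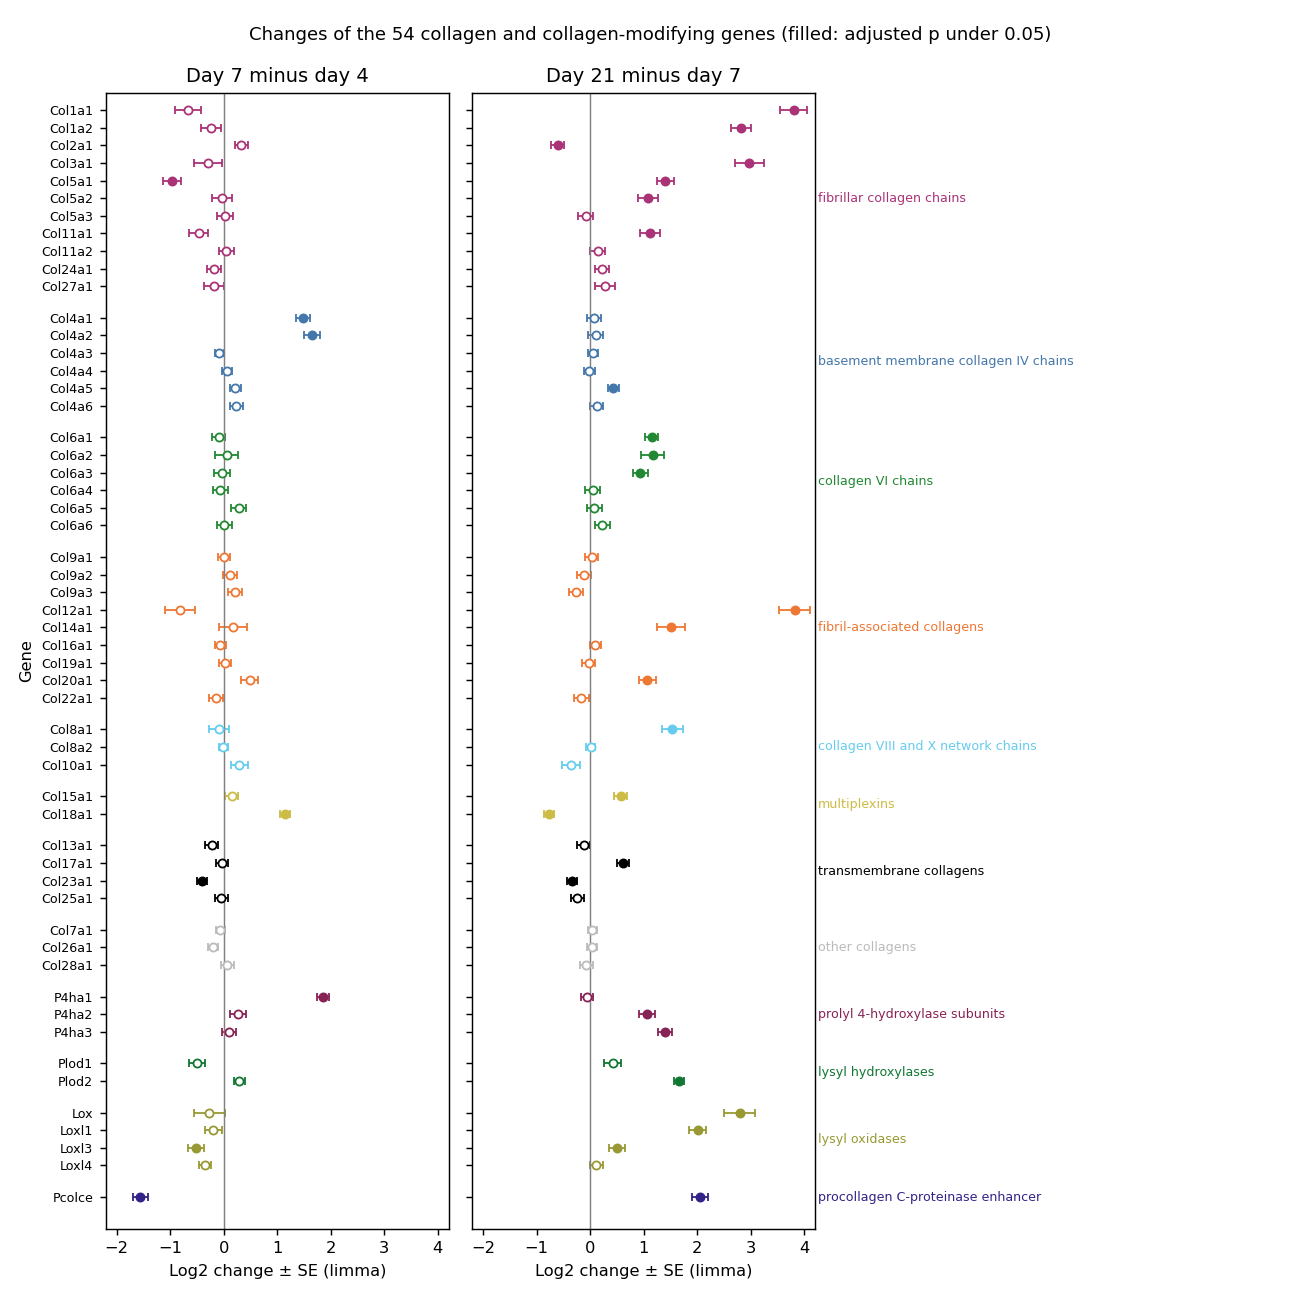
Log2 change (x axis) of each of the 54 genes (y axis, grouped by family) from day 4 to day 7 (left) and from day 7 to day 21 (right), with the limma SE as bars and filled points where the adjusted p was under 0.05. Col4a1, Col4a2, P4ha1 and Col18a1 stand to the right in the left panel, and 6 fibrillar chains with 7 modifying genes in the right panel.

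Among the 11 fibrillar chains, 6 were called higher at day 21 than at day 7 (Col1a1, Col3a1, Col1a2, Col5a1, Col11a1 and Col5a2) and 1 lower (Col2a1). The shares of all genes were 12.4% and 10.7%, and the median log2 change of the 11 chains was 1.08. Between days 4 and 7, 0 were called higher and 1, Col5a1, lower (6.98% and 6.47% of all genes), with a median of -0.19. Col1a1 encodes the major chain of collagen I, the fibril of bone, skin and tendon. Its log2 signals were 8.74, 8.03 and 8.00 on the day 4 arrays, 7.30, 7.70 and 7.78 on the day 7 arrays and 11.85, 11.32 and 11.01 on the day 21 arrays. Every day 21 array lay more than 2 log2 units above every earlier array, and the day 7 arrays lay below those of day 4 without passing the test (adjusted p = 0.117). From day 7 to day 21 Col1a1 rose 13.9-fold, a log2 change of 3.80 ± 0.25 (SE, limma adjusted p = 2e-06), and ranked 37 of 22180 genes by rise. Col1a2, its partner chain in collagen I, read 8.14, 7.96 and 7.94 at day 4, 7.65, 7.92 and 7.77 at day 7, and 11.09, 10.45 and 10.23 at day 21. All day 21 arrays again stood far above the others, and the day 7 arrays lay just under those of day 4 without a call. The rise from day 7 to day 21 was 7.04-fold (2.81 ± 0.19 SE, adjusted p = 2.63e-06). A dimmer second probe set of Col1a2 moved the same way, from a mean of 6.23 at day 7 to 8.64 at day 21.

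Col3a1 encodes the chain of collagen III, found with collagen I in soft tissues. It was close to background early, at 6.32, 6.38 and 6.38 on day 4 and 5.92, 6.09 and 6.19 on day 7, and reached 9.47, 9.41 and 8.26 on day 21. The day 21 arrays were all above the rest, but array 3 lay more than 1 log2 unit under the other two. The rise from day 7 was 7.87-fold (2.98 ± 0.26 SE, adjusted p = 1.81e-05). Collagen V nucleates fibrils and sets their diameter. Its Col5a1 chain read 8.24, 8.25 and 8.24 at day 4, 7.39, 7.22 and 7.22 at day 7, and 9.12, 8.39 and 8.54 at day 21. The 3 groups did not overlap, with day 7 lowest and day 21 highest. Col5a1 fell by 0.96 ± 0.16 (SE, adjusted p = 0.00263) and then rose by 1.41 ± 0.16 (SE, adjusted p = 0.000129), while day 21 against day 4 was not called (0.44, adjusted p = 0.071). A second Col5a1 probe set lay below background on every day, and with both averaged the changes came to -0.49 and 0.65, still called.

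Col5a2, the partner of Col5a1, lay near background at 6.28, 5.94 and 5.95 on day 4 and 5.90, 5.90 and 6.28 on day 7. It read 7.42, 7.15 and 6.73 on day 21, above all earlier arrays, a 2.11-fold rise from day 7 (1.08 ± 0.18 SE, adjusted p = 0.00152). Col11a1, a chain of collagen XI that is related to collagen V and known from cartilage fibrils, read 6.73, 6.18 and 6.34, then 5.94, 5.83 and 6.07, then 7.46, 6.86 and 6.86. Its day 7 mean was under background, so the rise to day 21 was at least 2.13-fold (log2 change of array signal 1.11 ± 0.18 SE, adjusted p = 0.0013). The call of Col11a1 at day 21 against day 4 (0.65, adjusted p = 0.023) was lost without array 2 or 3 of day 4 or without array 1 of day 21. Col2a1, the fibrillar chain of cartilage, went the other way. It read 7.20, 7.07 and 7.06 at day 4, 7.29, 7.67 and 7.36 at day 7, and 6.80, 6.74 and 6.97 at day 21, a fall of 0.60 ± 0.12 (SE, adjusted p = 0.00433) from day 7. Of 8 listed cartilage genes, 1 (Sox9) was above background on any day. Sox9 was called lower by day 7 and higher from day 7 to day 21, when Col2a1 fell. The fibrillar chains Col5a3, Col11a2, Col24a1 and Col27a1 were called in no comparison, and their signals on the 9 arrays lay between 5.90 and 7.41.

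**Figure D2:**
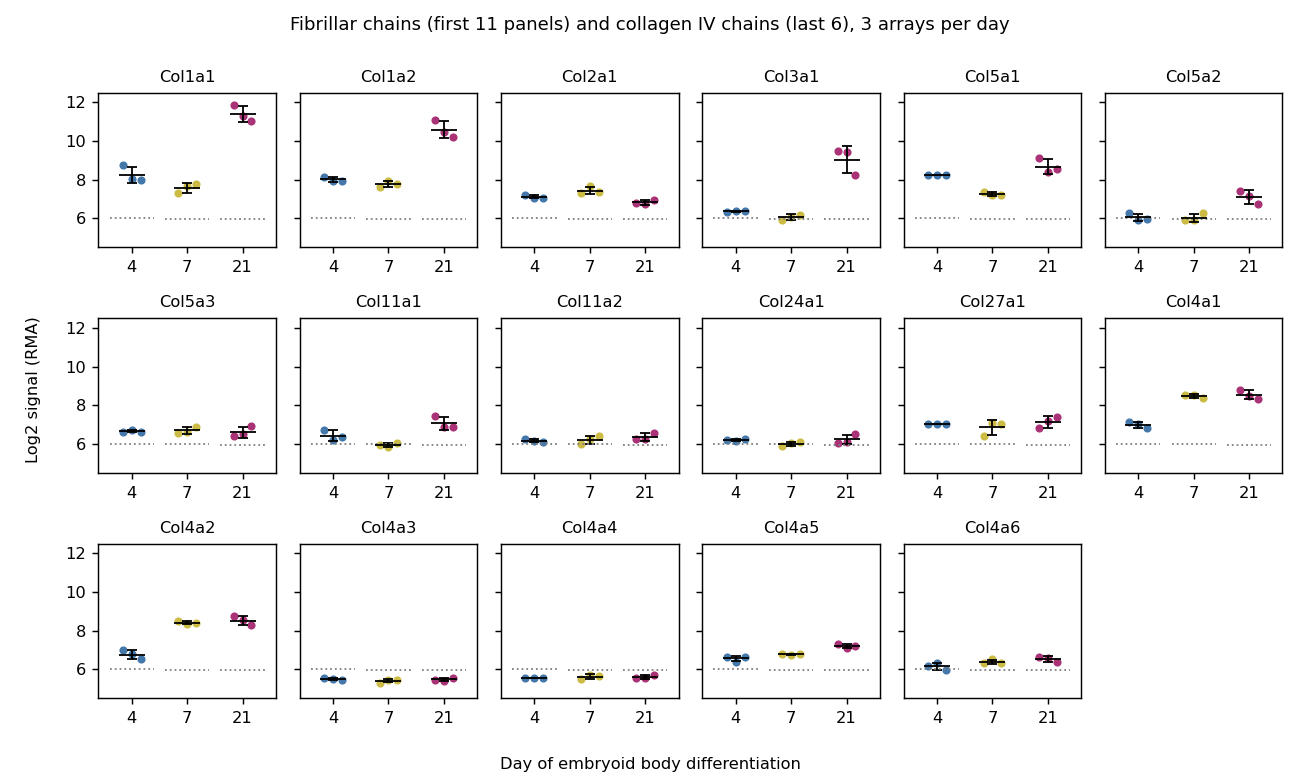
Log2 signal (y axis) of the 11 fibrillar and 6 collagen IV chains on days 4, 7 and 21 (x axis). Points are the 3 arrays of a day in the order 1 to 3, bars the mean ± SD, dotted lines the background level of that day. Col1a1, Col1a2 and Col3a1 step up at day 21, Col4a1 and Col4a2 at day 7.

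The promoters of 4 of the 6 rising fibrillar chains are shown because these genes were called higher in the same interval, and Col1a1 and Col5a2 are not shown. RefSeq promoter sequences of build GRCm38.p6, from 250 bases before to 50 after the start, were matched for 41 of the 54 members by symbol, in 44 windows. Printed are the 120 bases before the start, 5′ to 3′ on the gene's strand, of Col1a2 (chr6:4505498-4505617, plus strand), Col3a1 (chr1:45311418-45311537, plus), Col5a1 (chr2:27886305-27886424, plus) and Col11a1 (chr3:114030420-114030539, plus). Capitals mark matches on either strand. The first motif searched was CCAAT, the element named after its letters. The second was TATAAA, which is bound by the general transcription machinery. The third was GGGCGG, known for the factor Sp1, and the last was ACGTG, the core of the hypoxia response element.
Col1a2: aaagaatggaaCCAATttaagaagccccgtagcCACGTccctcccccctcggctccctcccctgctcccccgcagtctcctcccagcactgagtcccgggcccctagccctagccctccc
Col3a1: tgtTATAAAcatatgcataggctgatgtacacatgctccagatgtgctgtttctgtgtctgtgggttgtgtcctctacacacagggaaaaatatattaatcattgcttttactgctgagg
Col5a1: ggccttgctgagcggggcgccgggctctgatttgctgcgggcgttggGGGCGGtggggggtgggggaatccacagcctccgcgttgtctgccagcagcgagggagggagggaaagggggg
Col11a1: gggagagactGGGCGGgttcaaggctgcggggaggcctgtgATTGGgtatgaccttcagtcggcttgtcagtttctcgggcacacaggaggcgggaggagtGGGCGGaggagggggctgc
The 4 windows differ in base composition and in the motifs they hold. Col3a1 has 40.0% G and C and a TATAAA at position -117 from the start, whereas Col5a1 has 72.5% G and C. Over the 250 bases before the start, CCAAT was found in 29.5% of the member windows and in 33.8% of all 32851 windows of the table. TATAAA was found in 13.6% against 12.4%, and ACGTG in 15.9% against 16.6%. GGGCGG was found in 63.6% of the member windows against 32.7%. None of the 4 motifs is contained in another, though a palindromic match to the last would count on both strands. Such matches are letters in a window and show no bound factor.

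The day 21 arrays differed among themselves in these genes. Array 1 was highest for 6 of the 6 rising fibrillar chains and for 19 of the 23 members called higher from day 7, and array 3 was lowest for 4 and for 16 of them. The SD was largest on day 21 for 6 of the 6 chains, with a median of 0.40 there against 0.13 at day 7. Without array 1 of day 21 the rise of Col1a1 from day 7 was 3.57 and that of Col1a2 2.57, and both were still called. Markers of fibroblasts and mesenchyme are given beside the fibrillar chains. Of 15 listed, 0 were called higher and 6 lower at day 7 against day 4 (6.98% and 6.47% of all genes). At day 21 against day 7, 11 were called higher and 0 lower (12.4% and 10.7% of all genes). Over the whole course 7 were called higher and 3 lower (Twist1, Vim and Meox1), where the fibrillar chains counted 5 and 0 and all genes 15.0% and 14.1%. The mean log2 signal of the 15 markers was 6.63 to 6.78 on the day 4 arrays, 6.18 to 6.30 on the day 7 arrays, and 8.21, 7.81 and 7.65 on the day 21 arrays. Its order over the day 21 arrays is that of Col1a1 and Col1a2. This order is not particular to fibroblast markers. The collagen IV chains had it as well (means of 7.09, 6.96 and 6.91), as did the other basement membrane genes and the collagen receptors counted below. The visceral endoderm and endothelial markers did not. The proteoglycan genes Dcn and Lum, defining fibroblast markers, lay below background on days 4 and 7 and at 11.56 ± 0.62 and 8.74 ± 0.68 on day 21, at least 48.2-fold and 6.80-fold higher. At day 21, 13 of the 15 were above background. The part of these cells in the collagen values was not tested.

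**Figure D3:**
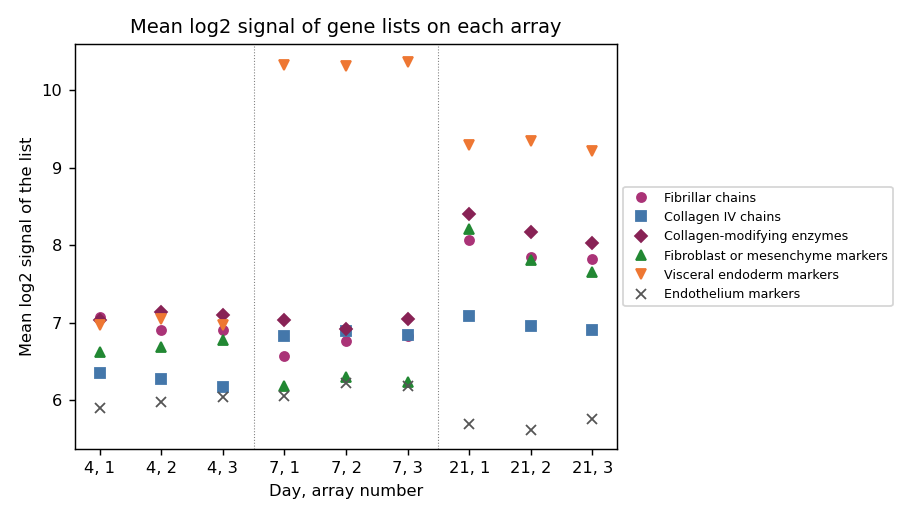
Mean log2 signal (y axis) of 6 gene lists on each of the 9 arrays (x axis, day and array number). Each list is to be read along the arrays and not against another list. Fibrillar chains, collagen IV chains, modifying enzymes and fibroblast markers are highest on array 1 of day 21, and visceral endoderm markers on the day 7 arrays.

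Markers of other cell types that are known to make collagen were counted in the same way from day 7 to day 21. In that interval 12.4% of all genes were called higher and 10.7% lower. Of 10 endothelial markers, 4 were above background on each day, and 0 were called higher and 4 lower, Kdr and Cdh5 with the largest changes (-1.25 and -0.86). Of 8 smooth muscle markers, 2 were called higher (Actg2 and Myh11) and 1 lower (Cnn1). Of 12 parietal endoderm markers, 6 were called higher and 1 lower (Pth1r), with Lama1 at 2.16 the largest rise. Their mean signal was 8.05 to 8.11 on the day 7 arrays and 8.70 to 8.87 at day 21. Over the whole course 8 of the 12 were called higher and 2 lower (Fst and Snai1), against 15.0% and 14.1% of all genes. Among the rising genes, Lama1, Nid1, Lamc1 and Lamb1 are also in the basement membrane list below. Of 9 stellate and portal mesenchyme markers, 3 were called higher from day 7 to day 21 (Cygb, Lrat and Gfap) and 2 lower (Lhx2 and Reln). Cygb, Lrat and Gfap were below background at day 7, so they rose at least 2.86-fold, 1.17-fold and 1.31-fold. Mesothelial markers counted 4 higher and 1 lower of 8, and all 7 basal and stratified epithelium markers were called higher. The part of these cells in the collagen values was not tested either.

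The basement membrane chains Col4a1 and Col4a2 rose between days 4 and 7 and then stayed near that level. They pair in the most widespread collagen IV molecule. Col4a1 read 7.12, 7.02 and 6.83 on day 4, 8.51, 8.53 and 8.36 on day 7 and 8.79, 8.49 and 8.33 on day 21. Col4a2 read 6.99, 6.78 and 6.54, then 8.51, 8.33 and 8.41, then 8.75, 8.53 and 8.28. In both genes the day 7 and day 21 arrays overlapped and all lay above the day 4 arrays. The rise to day 7 was 2.79-fold for Col4a1 (1.48 ± 0.13 SE, adjusted p = 3.39e-05) and 3.14-fold for Col4a2 (1.65 ± 0.15 SE, adjusted p = 3.29e-05), ranks 220 and 166 of all genes. From day 7 to day 21 the changes were 0.07 (95% interval -0.23 to 0.36) and 0.10 (95% interval -0.22 to 0.43), intervals that are not adjusted for the number of genes.

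Of the other collagen IV chains, Col4a5 and Col4a6 lie next to each other on chromosome X and are known from the basement membranes of kidney and smooth muscle. Col4a5 read 6.65, 6.40 and 6.66 at day 4, 6.79, 6.77 and 6.79 at day 7, and 7.32, 7.13 and 7.19 at day 21. The 3 groups did not overlap, and the later step was called (0.43 ± 0.10 SE, adjusted p = 0.0122). Col4a6 read 6.17, 6.35 and 5.99, then 6.35, 6.52 and 6.35, then 6.65, 6.58 and 6.37. Only its change from day 4 to day 21 was called (0.36, adjusted p = 0.0485), and that call was lost without array 1 or 3 of day 4, any of the 3 day 7 arrays, or array 1 or 2 of day 21. Col4a3 and Col4a4, neighbours on chromosome 1, lay below background on every day. In all, 2 of the 6 chains were called higher by day 7, 1 from day 7 to day 21, 4 over the whole course, and 0 were called lower in any comparison. The shares of all genes called higher were 6.98%, 12.4% and 15.0%.

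Col4a1 and Col4a2 are printed because they are read from 1 shared region in opposite directions. By the RefSeq table for GRCm38.p6 their starts lie 21 bases apart on chromosome 8, Col4a1 on the minus and Col4a2 on the plus strand, and their 300-base windows share 78 bases. Each piece is the 30 bases around a CCAAT match (capitals, read on either strand), in the orientation of its gene, at chr8:11312955-11312984 for Col4a1 and chr8:11312760-11312789 for Col4a2.
Col4a1: gtgcttgcccgggATTGGcgagccaagggg
Col4a2: cccgaggagctccCCAATttgttggcgctg
The matches begin at positions -145 and -32 from the respective starts. The Col4a1 piece lies outside the 78 shared bases, and the Col4a2 piece partly outside them. The difference between the Col4a1 and Col4a2 signals changed by -0.17 from day 4 to day 7 and by -0.03 from day 7 to day 21, and its values on the 2 sets of arrays overlapped in both intervals. The starts of Col4a5 and Col4a6 lie 1343 bases apart, with windows that share 0 bases.

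Among the fibrillar chains 0 of 11 were called higher by day 7 and 6 from day 7 to day 21. Among the collagen IV chains 2 of 6 were called higher by day 7 and 1, Col4a5, from day 7 to day 21. The shares of all genes called higher were 6.98% by day 7 and 12.4% from day 7 to day 21. At 6.98%, 0 calls among 11 genes would not be unusual, and the 1 of 6 (16.7%) is near 12.4%. The median log2 change of the 11 fibrillar chains minus that of the 6 collagen IV chains was -0.41 from day 4 to day 7, 0.99 from day 7 to day 21 and -0.06 over the whole course. With dim probe sets left out the first value was -1.05 and the last -0.65, and with the mean of all probe sets of a gene the second was 0.57 and the last -0.32. The whole-course value had no stable sign: it was -0.20 without array 1 of day 21 and 0.07 without array 2 of day 21. Per array, the signal of Col1a1 minus that of Col4a1 changed by -2.15 from day 4 to day 7 and by 3.73 from day 7 to day 21. The corresponding changes were -1.88 and 2.71 for Col1a2 minus Col4a2, and -1.77 and 2.91 for Col3a1 minus Col4a1. In these 6 comparisons the 3 arrays of the earlier day and the 3 of the later day did not overlap. The 2 chains of collagen I also changed unequally, with Col1a1 minus Col1a2 moving by -0.43 and then by 0.98, and no overlap between the arrays. For 3 against 3 arrays the exact two-sided permutation test cannot go below p = 0.1, which each of these differences reached (0.14 after Benjamini-Hochberg adjustment over the 21 tests of 7 pairs). That test therefore cannot pass a threshold of 0.05 with 3 arrays per day, and no other test of these differences was run.

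Collagen XVIII, a basement membrane proteoglycan of the multiplexin family, followed the early rise. Col18a1 read 6.72, 6.54 and 6.61 at day 4, 7.71, 7.74 and 7.84 at day 7, and 7.01, 6.99 and 6.97 at day 21, so the 3 groups were fully apart. It rose by 1.14 ± 0.09 (SE, adjusted p = 1.55e-05) and fell by 0.78 ± 0.09 (SE, adjusted p = 0.000137), and its call over the whole course (0.37, adjusted p = 0.0117) was lost without array 2 of day 4. It is the only member called higher and then lower. Col15a1, the other multiplexin, was below background on days 4 and 7 and reached 6.09 ± 0.07 on day 21 (0.57 ± 0.12 SE, adjusted p = 0.005), at least 1.08-fold above the day 7 background.

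Of 9 fibril-associated collagens, 3 were called higher from day 7 to day 21 (12.4% of all genes), and the median log2 change of the 9 was 0.03. Col12a1, a fibril-associated collagen of tendon and fascia, read 6.02, 5.84 and 5.59, then 4.73, 5.33 and 4.92, and then 9.50, 8.75 and 8.20. Its means on days 4 and 7 were below background, so the rise was at least 7.17-fold, and its change of array signal (3.82 ± 0.28 SE, adjusted p = 5.14e-06) ranked 35 of all genes. Col14a1, a related gene, was below background early and rose at least 2.24-fold to 7.14 ± 0.56. Col20a1 rose 2.10-fold from 6.65 ± 0.11 to 7.72 ± 0.18 (adjusted p = 0.000747). The other 6 chains were not called in any comparison.

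Collagen VI forms beaded filaments around cells, and its 3 core chains rose together. Col6a1 rose 2.22-fold from 6.69 ± 0.07 at day 7 to 7.84 ± 0.22 at day 21, Col6a2 2.25-fold from 6.81 ± 0.13 to 7.98 ± 0.50 and Col6a3 1.92-fold from 6.15 ± 0.20 to 7.09 ± 0.18, with adjusted p of 5.73e-05, 0.00233 and 0.000753. Col6a1 and Col6a2 are neighbours on chromosome 10, while Col6a3 lies on chromosome 1. The later-found chains Col6a4, Col6a5 and Col6a6, neighbours on chromosome 9, were not called. Col8a1, a network-forming chain of vessel walls and cornea, rose 2.90-fold to 7.95 ± 0.37 (adjusted p = 0.000192), whereas Col8a2 and Col10a1 were not called. Col17a1, the transmembrane collagen of hemidesmosomes in stratified epithelium, rose by 0.61 ± 0.11 (SE, adjusted p = 0.00281). Col23a1, another transmembrane collagen, is the only member called lower in both intervals, at 7.63 ± 0.08, 7.23 ± 0.02 and 6.88 ± 0.05. The earlier step (-0.40, adjusted p = 0.0123) was not called without array 2 of day 4, nor the later (-0.34, adjusted p = 0.0182) without array 2 or 3 of day 7 or array 1 of day 21.

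**Figure D4:**
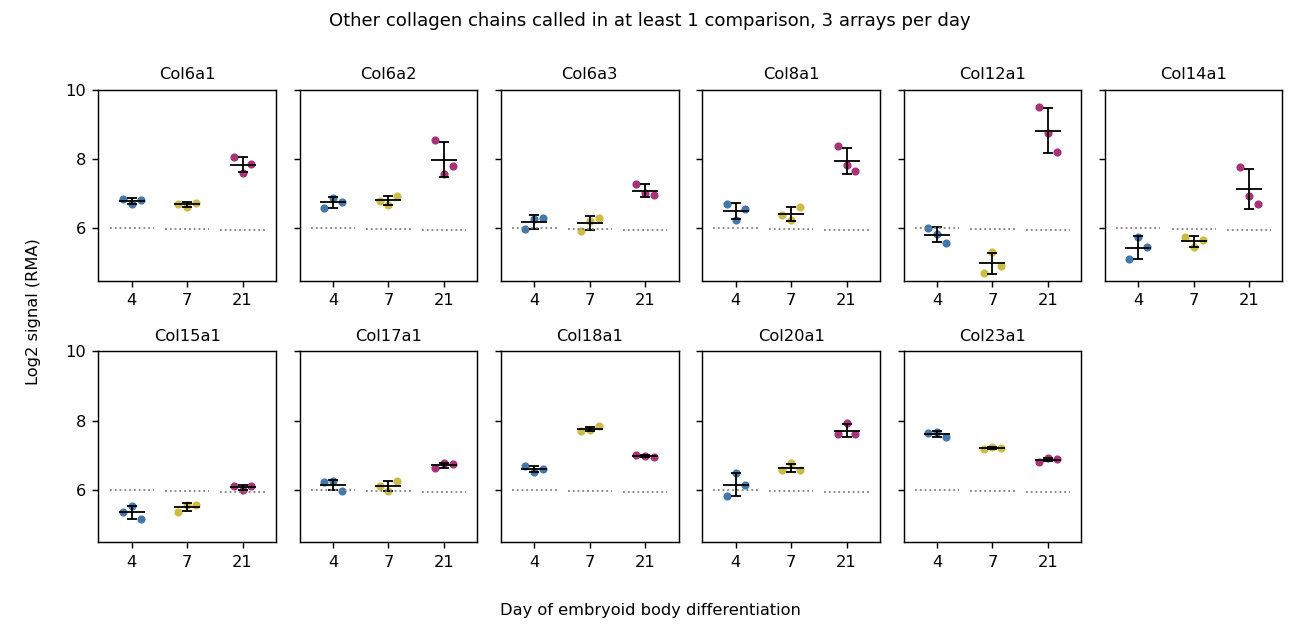
Log2 signal (y axis) on days 4, 7 and 21 (x axis) of the 11 collagen chains outside the fibrillar and collagen IV groups that were called in at least 1 comparison. Points are the 3 arrays of a day in the order 1 to 3, bars the mean ± SD, dotted lines the background level of that day. Col12a1 reaches 8.81 ± 0.65 at day 21, and Col18a1 peaks at day 7.

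Among the 10 modifying genes, 1 was called higher and 2 lower at day 7 against day 4 (6.98% and 6.47% of all genes). At day 21 against day 7, 7 were called higher and 0 lower (12.4% and 10.7% of all genes). The median log2 changes of the 10 were -0.23 and 1.23. Prolyl 4-hydroxylases make the hydroxyproline that keeps the triple helix stable, and their 3 catalytic subunits took different courses. P4ha1 read 6.98, 7.11 and 7.26 at day 4, 9.09, 8.90 and 8.90 at day 7, and 8.90, 9.04 and 8.77 at day 21. It rose 3.61-fold by day 7 (1.85 ± 0.12 SE, adjusted p = 2.55e-06), and the later arrays overlapped (-0.06, 95% interval -0.32 to 0.19). P4ha2 read 6.23, 6.30 and 6.57, then 6.68, 6.68 and 6.55, then 7.99, 7.69 and 7.42, with a 2.09-fold rise after day 7 (adjusted p = 0.000421). P4ha3 was below background on days 4 and 7, at 5.84, 5.97 and 5.63 and at 5.92, 5.69 and 6.12, and read 7.33, 7.31 and 7.30 on day 21. Its rise was at least 2.53-fold (adjusted p = 2.31e-05), and its day 21 SD of 0.02 was the smallest of the 23 members called higher. So P4ha1 stepped up with Col4a1 and Col4a2, while P4ha2 and P4ha3 stepped up in the interval of the fibrillar chains.

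Lysyl hydroxylases prepare lysines for crosslinks and sugars. Plod2, which acts on the telopeptides that set the type of crosslink, read 9.51, 9.38 and 9.31 at day 4, 9.63, 9.77 and 9.68 at day 7, and 11.35, 11.45 and 11.26 at day 21. All day 21 arrays were high and close together, and the rise from day 7 was 3.17-fold (1.66 ± 0.10 SE, adjusted p = 1.04e-06). Plod1, which acts on the helix, stood at 7.85 ± 0.24, 7.35 ± 0.18 and 7.77 ± 0.19, with the arrays of day 7 below all others. Neither step was called (-0.50, adjusted p = 0.0581, and 0.42, adjusted p = 0.0776). Both were called with dim probe sets left out (adjusted p = 0.0272 and 0.0411) and with the replicate number as a block (adjusted p = 0.0321 and 0.0423), and the earlier step also with a trended and robust variance (adjusted p = 0.0401).

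Lysyl oxidases crosslink the finished collagen and elastin fibres outside the cell. Lox read 4.93, 5.24 and 5.19 at day 4, 4.90, 4.83 and 4.83 at day 7, and 8.47, 7.48 and 7.00 at day 21. It was below background until day 21 and then spread more widely than any other member (SD 0.75), a rise of at least 3.19-fold (log2 change of array signal 2.80 ± 0.29 SE, adjusted p = 5.35e-05). Loxl1, known from elastic fibres, read 6.64, 6.60 and 6.65, then 6.40, 6.42 and 6.49, then 8.88, 8.27 and 8.19. It rose 4.02-fold after day 7 (2.01 ± 0.16 SE, adjusted p = 8.47e-06). Loxl3 read 7.43, 7.75 and 7.35, then 7.12, 6.81 and 7.07, then 7.58, 7.65 and 7.25. Its fall of 0.51 ± 0.15 (SE, adjusted p = 0.0466) and its later rise of 0.50 ± 0.15 (SE, adjusted p = 0.0354) both stood near the threshold. The fall was called in 1 of the 9 fits that left out an array, the one without array 3 of day 21. In the other fits it was lost, with an adjusted p of up to 0.168 (without array 2 of day 4). The later rise was not called without any of the 3 day 7 arrays or without array 1 or 2 of day 21. Loxl4 was not called.

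Pcolce is not an enzyme itself but speeds the removal of the C-propeptide of fibrillar procollagens. It read 8.23, 8.24 and 8.23 at day 4, 6.84, 6.49 and 6.69 at day 7, and 9.06, 8.59 and 8.54 at day 21. The groups did not overlap and day 7 was lowest, with a fall of 1.56 ± 0.15 (SE, adjusted p = 4.72e-05) that ranked 110 of all genes by fall and a rise of 2.05 ± 0.15 (SE, adjusted p = 3.79e-06). Its call over the whole course (0.50, adjusted p = 0.0261) was lost without any of the 3 day 4 arrays or without array 1 of day 21. P4ha1 and Pcolce had the largest opposite changes among the members by day 7, and the 120 bases before their starts are shown, from chr10:59323176-59323295 (plus strand) and chr5:137611405-137611524 (minus strand), 5′ to 3′ on the gene's strand, with capitals as before.
P4ha1: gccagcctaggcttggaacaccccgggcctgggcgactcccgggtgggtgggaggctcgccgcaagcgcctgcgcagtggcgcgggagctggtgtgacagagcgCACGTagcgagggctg
Pcolce: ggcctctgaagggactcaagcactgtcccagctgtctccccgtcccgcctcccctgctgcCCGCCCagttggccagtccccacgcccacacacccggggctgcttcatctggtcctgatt
The P4ha1 piece holds an ACGTG on the reverse strand at position -16 from the start and the Pcolce piece a GGGCGG on the reverse strand at position -60. Of the 6 modifying genes with a promoter in the table, all have GGGCGG within 250 bases.

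**Figure D5:**
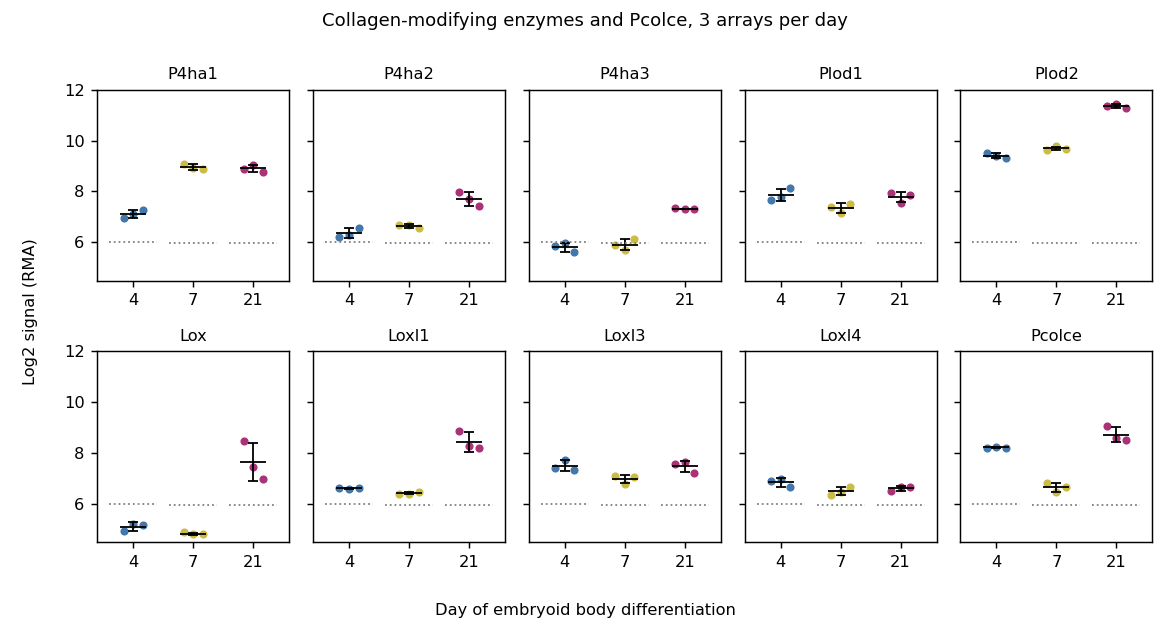
Log2 signal (y axis) of the 10 modifying genes on days 4, 7 and 21 (x axis). Points are the 3 arrays of a day in the order 1 to 3, bars the mean ± SD, dotted lines the background level of that day. P4ha1 is high from day 7 on, Pcolce dips at day 7, and Lox, Loxl1 and Plod2 are highest at day 21.

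The partners of collagen in the cell and in the matrix were counted from lists of other genes. Of 25 genes for collagen folding, transport and propeptide removal, 4 were called higher and 5 lower by day 7 (6.98% and 6.47% of all genes). From day 7 to day 21, 6 were called higher and 2 lower (12.4% and 10.7% of all genes). Bmp1 encodes the C-proteinase that Pcolce assists. Like Pcolce, it was lowest at day 7, with a fall of 0.96 ± 0.13 (SE) and a rise of 0.77 ± 0.13 (SE). Unlike Pcolce, Bmp1 was not called over the whole course. The related proteinase gene Tll1 went below background by day 7, at least 4.09-fold lower than on day 4 (log2 change of array signal -2.85 ± 0.13 SE), and was still there at day 21. Creb3l1, a transcription factor for secretory genes, rose by 1.68 ± 0.17 (SE) by day 7, and Mia2, which acts in export of large cargo, rose from below background to 6.42 ± 0.25, at least 1.33-fold. P3h2, a prolyl 3-hydroxylase known to act on collagen IV, fell by 1.43 ± 0.20 (SE) after day 7, while P3h4 and Crtap, of the complexes that modify fibrillar chains, rose by 1.42 ± 0.13 and 0.80 ± 0.12 (SE). The collagen chaperone gene Serpinh1, chosen after its values were seen, stood at 8.60 ± 0.07, 8.60 ± 0.03 and 8.68 ± 0.11 and was called in no comparison.

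Of 18 other basement membrane genes, 8 were called higher and 1 lower by day 7 (6.98% and 6.47% of all genes). After it, 14 were called higher and 2 lower (12.4% and 10.7% of all genes). The median log2 change of the 18 was 0.96 in the later interval against 0.08 for the collagen IV chains. The largest early rises were those of Fras1 (1.61 ± 0.11 SE), which links epithelium to the membrane, and the laminin chain Lama5 (0.99 ± 0.09 SE). The largest later rises were those of Tinagl1 (2.90 ± 0.15 SE), the laminin chain Lama1 (2.16 ± 0.15 SE), the nephronectin gene Npnt (1.85 ± 0.11 SE) and Nid1, the nidogen that joins laminin to collagen IV (1.46 ± 0.23 SE). The other nidogen gene, Nid2, fell by 1.41 ± 0.13 (SE) in that interval, and the peroxidasin gene Pxdn, whose product crosslinks collagen IV, fell by 0.46 ± 0.12 (SE). The difference between these genes and the collagen IV chains was not tested.

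Of 10 collagen receptors, 1 was called higher and 4 lower by day 7 (6.98% and 6.47% of all genes). From day 7 to day 21, 6 were called higher and 0 lower (12.4% and 10.7% of all genes). The largest early fall was that of the integrin subunit Itga1 (-1.10 ± 0.16 SE). Ddr2, a receptor kinase for fibrillar collagens, was below background at day 7 and stood at 8.64 ± 0.62 on day 21, at least 6.33-fold higher (log2 change of array signal 3.53 ± 0.27 SE, adjusted p = 5.73e-06). Ddr1, its epithelial relative that also binds collagen IV, rose in both intervals, by 0.71 ± 0.10 and 0.76 ± 0.10 (SE). Adgrg1, a receptor of collagen III, rose 8.09-fold after day 7, and the integrin subunit Itga2, below background at day 7, at least 2.34-fold.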

How the data were processed

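Total RNA (500 pg) of sorted cells was labelled with the WT Pico kit and hybridised to Affymetrix arrays. The authors deposited 1 log2 signal for each probe set and array, made by RMA in Affymetrix Expression Console according to the submitters' processing notes. For the program's version, nothing is given in the sources used here. Scanner files were not analysed here. Of 34365 probe sets, 23521 had 1 gene symbol in the platform annotation, 1814 several and 9030 none, and those with 1 symbol gave 22180 genes by the brightest probe set. Of these probe sets 23328 matched the RefSeq table of GRCm38.p6 by Entrez number, and 0 symbols changed.

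limma 3.58.1 in R 4.3.3 was fitted to all 9 arrays with a mean per day and empirical Bayes variances. P-values are two-sided and adjusted by Benjamini-Hochberg over all 22180 genes, with 0.05 as the threshold. Sequence windows, motif counts and plots were made in Python 3.11.15 with pandas 2.3.3, numpy 2.4.6 and matplotlib 3.10.9. A level against the background (95th percentile of olfactory receptor genes, 5.87 to 6.16 by array) gave the lower bounds on fold changes. The genes named are all members, with array values for fibrillar, collagen IV and modifying genes called in at least 1 comparison, and the partner genes with the largest called changes. The members and all gene lists were chosen with earlier results of these data known. The fit was tested on simulated data of 22180 genes: for day 21 against day 7 it recovered 11.8% of changes of 0.5 on the log2 scale, 86.4% of 1 and 100% of 2. Only 68, 66 and 66 genes had changes of these sizes there, whereas 23.0% of genes were called in the data. The adjustment depends on that share, so the recovery in the data may differ. Alternatives left out each array in turn, dim probe sets or the third day, and changed the centring, the probe set rule, the variance model and the block. The number of arrays limits the precision.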

Additional observations from a re-analysis of the deposited data

How the results depend on the processing

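Over 16 other settings, 9 of which leave out an array, no called gene changed direction. The fibrillar minus collagen IV median over the whole course did change sign, to 0.07 without array 2 of day 21 and to 0.03 with a repeated quantile normalization. The calls held in every setting for 6 of 8 members at day 7 against day 4 (not Col23a1 and Loxl3), for 24 of 26 at day 21 against day 7 (not Col23a1 and Loxl3) and for 23 of 27 at day 21 against day 4 (not Col11a1, Col18a1, Col4a6 and Pcolce). With dim probe sets left out, 7 members were called lower by day 7, modifying genes counted 2 higher and 4 lower, members lower over the whole course were 2, and the fibrillar minus collagen IV median was -1.05 by day 7 and -0.65 over the whole course. With the mean of all probe sets of a gene, that difference was 0.57 from day 7 to day 21 and -0.32 over the whole course. Modifying genes called higher by day 7 were 2 with a trended and robust variance. Members called lower over the whole course were 2 with arrays centred on their medians and 3 with a repeated quantile normalization. Without each array in turn, members called lower were 2 to 5 by day 7 and 1 to 3 over the whole course, and modifying genes called lower by day 7 were 1 to 2. Genes not called in the report but called in at least 1 setting were Col12a1, Col20a1, Plod1, Plod2 and Loxl4 by day 7, Plod1 and Col25a1 from day 7 to day 21, and Col13a1, Col25a1, Col5a1 and Col6a5 over the whole course. The cause of these shifts was not tested.

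The labels give arrays of different days only a number in common. For arrays of the same number, deviations from the day means correlated between -0.0541 and 0.263, and in 3 of the 9 pairs above 0. Those 3 are the pairs of days 7 and 21 (0.078, 0.139 and 0.263). Pairs of different numbers on days 7 and 21 ran from -0.176 to 0.0742. Whether arrays of the same number share a culture was not tested. With the replicate number as a block, members called lower over the whole course were 2, the call of Loxl3 by day 7 was lost (adjusted p = 0.0604), and further calls were those of Col20a1 by day 7 (adjusted p = 0.027), Plod1 in both intervals (adjusted p = 0.0321 and 0.0423) and Col13a1 over the whole course (adjusted p = 0.0416). Over all genes the block gave 2895, 5041 and 6413 calls in the 3 comparisons against 2983, 5106 and 6448.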
